A study of Mus musculus with 6 samples.

Results

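The heat shock and ER stress genes are a list of 38 mouse genes for the chaperones, sensors and stress transcription factors that guard protein folding. A gene was read through every probe set that the platform annotation assigned to that gene alone. By this rule 36 of the 38 genes were measured, by 93 of the 45037 probe sets tested. They fell into 9 cytosolic chaperones with 28 probe sets, 11 ER chaperones with 25, 4 ER stress sensors with 15, 6 genes of the ATF4 and CHOP arm with 11, 3 genes of ER-associated degradation with 9, 2 mitochondrial chaperonins with 3 and 1 heat shock factor with 2. The class of 4 ER stress sensors holds Atf6, Ern1, Eif2ak3 and Xbp1. Xbp1 is counted there as the transcription factor spliced by the sensor IRE1 and is not itself a sensor. Hsf1 and Hsp90ab1 were not analysed here.

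The arrays measured total RNA of brain without cerebellum from Gb5-deficient mice (Gb5ko, 3 arrays numbered 1 to 3) and from wild-type mice (Gb5wt, 3 arrays numbered 4 to 6). Gb5 is the divergent G protein beta subunit encoded by Gnb5, which partners the R7 group of RGS proteins. The mice were littermates matched for age and sex, and the 3 samples of a genotype were described as biological replicates, per the labels and were taken as separate mice, on which the sex-linked transcripts given with the arrays bear. Age, sex, strain and the way the allele was made are not given in the sources used here. No stress treatment is named in the labels.

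Cells meet misfolded protein in the cytosol with the heat shock response, in which heat shock factors drive the Hsp70, Hsp90 and small heat shock protein genes. In the ER, the sensors IRE1, PERK and ATF6 drive the unfolded protein response, which raises ER chaperones and the degradation machinery. PERK also phosphorylates eIF2, which favours translation of ATF4 and, downstream of it, CHOP and genes of amino acid supply. Neurons carry a heavy load of secreted and membrane protein and express many of these chaperones constitutively. ATF4, XBP1 and ATF6 are controlled largely by translation, splicing or cleavage, which the probe sets as annotated do not report.

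No member passed the test in Gb5ko brain: limma called 0 of the 93 probe sets at an adjusted p under 0.05, where 0.0266% of all probe sets were called. At an adjusted p under 0.1, 1 member probe set was called, for Dnajc3, against a background of 0.0977%. At an unadjusted p under 0.05 there were 19 (20.4%, background 14.4%), of which 14 were lower in Gb5ko (15.1%, background 6.33%) and 5 were higher (5.38%, background 8.09%). The 3 Gb5ko values lay wholly below the 3 Gb5wt values for 18 probe sets (19.4%, background 8.95%) and wholly above them for 8 (8.6%, background 12.5%).

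Read through the brightest probe set of each gene, 25 of the 36 genes had a difference below 0 (69.4%), where 40.1% of all 18193 genes did. Of these brightest probe sets limma called 0 at an adjusted p under 0.05 (background 0.022%). Differences are given throughout as Gb5ko minus Gb5wt on the log2 scale. The median difference was -0.07 over the 36 genes and 0.05 over all genes. The 36 genes ranged from -0.44 for Atf4 to 0.34 for Hspb1. Leaving out each array in turn gave 22 to 26 genes below 0.

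The classes differed in where their medians lay. The 9 cytosolic chaperones had a median difference of -0.16, with 7 below 0, and the 11 ER chaperones had -0.07, with 8 below 0. The sensor class of 4 genes, Xbp1 included, had -0.11, with 3 below 0. Its genes were Atf6 at -0.34, Xbp1 at -0.19, Eif2ak3 at -0.03 and Ern1 at 0.06. The 6 genes of the ATF4 and CHOP arm had 0.16, with 2 below 0. With the probe set of largest SD for each gene in place of the brightest, the ER chaperone median was -0.21 and the cytosolic one -0.17, and with the mean over all probe sets of a gene both were -0.14 and that of the sensors 0.00, so the order of these classes depended on the probe set. These medians are descriptions of the classes and no test of them was made.

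On single arrays the class medians separated the genotypes for some classes. As a deviation from the 6-array mean, the median cytosolic chaperone lay at -0.12, -0.04 and -0.08 in Gb5ko arrays, against 0.03, 0.12 and 0.02 in Gb5wt arrays. The sensors lay at -0.12, -0.08 and -0.03 in Gb5ko, against 0.04, 0.02 and 0.07 in Gb5wt. For both classes all 3 Gb5ko arrays were below all 3 Gb5wt arrays, by margins of the size of the spread within a genotype. The median over all 18193 genes also separated the genotypes, in the other direction. It lay at 0.049, 0.009 and 0.006 in Gb5ko, against -0.021, -0.015 and -0.020 in Gb5wt. The ER chaperones lay at -0.04, -0.06 and -0.06 in Gb5ko, against -0.05, 0.08 and 0.12 in Gb5wt, and the ATF4 and CHOP arm at -0.05, 0.05 and 0.07 in Gb5ko, against -0.05, -0.03 and 0.00 in Gb5wt. The genotypes overlapped in both of these classes, through Gb5wt array 4 and Gb5ko array 1. Without Gb5wt array 4 the ER chaperone median was -0.15.

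**Figure D1:**
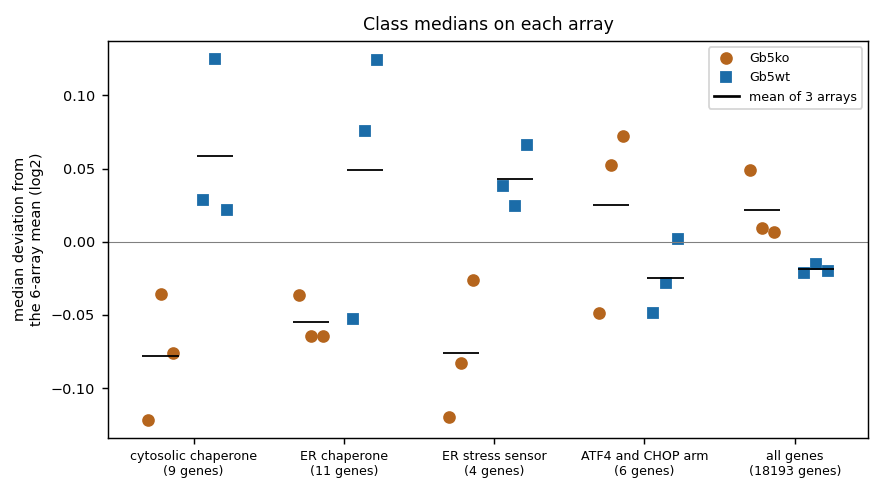
Median deviation of each class from the 6-array mean of its genes (vertical axis, log2), 1 point per array, Gb5ko left of Gb5wt, with black lines at the mean of 3 arrays. The cytosolic chaperones and sensors sit lower on all Gb5ko arrays. The medians of all genes stay between -0.02 and 0.05 and sit higher on all Gb5ko arrays.

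Facts of the arrays touch these values. Gnb5 itself read 3.41 ± 0.361 in Gb5ko and 9.03 ± 0.258 in Gb5wt (SD, n = 3 each), a difference of -5.62 ± 0.19 (SE), in the direction the genotype labels give. Principal component 1 held 40.3% of the variance, and on it Gb5ko array 1 stood apart at -49.8, the other Gb5ko arrays were at -5.82 and -8.47, and Gb5wt arrays were between 15.4 and 32.3. Of 11 marker lists, 0 had a called member; 5 of 6 microglia markers were above 0, with mean levels of 7.45 to 7.55 in Gb5ko and 7.24 to 7.35 in Gb5wt, and 0 of 5 meningeal fibroblast markers were above 0, with 8.15 to 8.30 in Gb5ko and 8.44 to 8.61 in Gb5wt. Blood markers, 0 of 3 above 0, averaged 4.80 to 5.06 in Gb5ko and 5.30 to 5.51 in Gb5wt, and 6 of 6 pituitary markers were above 0, with means of 5.11, 4.54 and 7.46 in Gb5ko, against 4.43, 4.62 and 5.35 in Gb5wt, the highest being Gb5ko array 3. Oligodendrocyte markers, 0 of 5 above 0, averaged 10.62 to 11.09 in Gb5ko and 10.99 to 11.28 in Gb5wt, with a median difference of -0.20. Neuron markers averaged 12.27 to 12.35 in Gb5ko and 12.25 to 12.33 in Gb5wt. The 3' minus 5' signal of Gapdh was 1.16 to 1.30 in Gb5ko and 1.03 to 1.38 in Gb5wt. Xist read 10.65, 8.31 and 10.62 in Gb5ko, against 4.96, 10.81 and 10.70 in Gb5wt, and the Y-linked Eif2s3y 2.96, 11.28 and 6.97 in Gb5ko, against 11.26, 6.05 and 4.05 in Gb5wt. Gb5wt array 4 was the 1 array low in Xist and high in Eif2s3y, Gb5ko array 2 was high in both, and Gb5ko array 3 and Gb5wt array 5 had intermediate Eif2s3y beside high Xist. No Gb5ko array had the pattern of Gb5wt array 4, so these values do not show the matching for sex that the labels state. Whether an array holds RNA of 1 mouse is not settled by these values. The part of these features in the member differences was not tested, and in bulk tissue fewer cells of a type and less RNA per cell cannot be told apart.

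Among the cytosolic chaperones, the stress-inducible Hsp70 pair Hspa1a and Hspa1b comes first. These neighbouring genes are near copies, so a probe set annotated to one may also read the other. Their promoters are shown because they carry inverted units for heat shock factor. The windows, 250 bases before to 50 after the start in RefSeq on GRCm38.p6, were identical at 296 of 300 bases. Capitals mark the pair of units GAANNTTC, searched on both strands, and each sequence is written on the strand of the gene. The Hspb1 window holds 2 such pairs, at -117 and -97 from the start. Only that at -97 is capitalised, and the other opens the Hspb1 stretch in lower case.
Hspa1a chr17:34972233-34972280: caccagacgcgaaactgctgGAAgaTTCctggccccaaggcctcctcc
Hspa1b chr17:34959315-34959362: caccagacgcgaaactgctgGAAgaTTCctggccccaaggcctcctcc
Hspb1 chr5:135887802-135887849: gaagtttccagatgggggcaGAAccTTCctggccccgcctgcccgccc
Hspe1 chr1:55088051-55088084: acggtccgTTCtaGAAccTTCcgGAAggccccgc
The Hspe1 stretch is the longer heat shock element, in which further alternating units flank the pair.

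The pair was present in windows of 4 of the 7 cytosolic chaperone genes that had one (Hspa1a, Hspa1b, Hspb1 and Hsph1), in both chaperonin genes and in Asns, and in 7.86% of all 32851 windows. The windows of Dnajb1, Hspa4 and Hspa4l held no such pair. The longer element was in windows of Hsph1, Hspd1 and Hspe1 and in 0.603% of all windows. Hspd1 and Hspe1 share a promoter region, and all 18 bases of the Hspe1 element also lie in an Hspd1 window. A match is a description of letters in these windows and not a bound site.

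Hspa1b had its brightest probe set at 7.83, 7.37 and 7.71 in Gb5ko, against 7.99, 7.94 and 7.88 in Gb5wt. All Gb5ko values were lower, by -0.30 ± 0.13 (SE; 95% interval -0.59 to -0.01; limma adjusted p = 0.336). The other Hspa1b probe sets were dim, at 3.30, 3.02 and 3.18 in Gb5ko against 3.31, 3.31 and 3.27 in Gb5wt, and at 2.73, 3.00 and 3.04 in Gb5ko against 2.68, 3.11 and 2.90 in Gb5wt. They overlapped between genotypes, with differences of -0.13 and 0.02. The single Hspa1a probe set read 5.73, 5.19 and 5.41 in Gb5ko, against 5.63, 5.62 and 5.54 in Gb5wt, and also overlapped (-0.16 ± 0.14, limma adjusted p = 0.628). That difference was -0.30 without Gb5ko array 1 and -0.03 without Gb5ko array 2, and the brightest Hspa1b probe set gave -0.17 without Gb5ko array 2.

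Hspa8 encodes Hsc70, the constitutive Hsp70 that also uncoats clathrin vesicles, and lies on chromosome 9, as Gnb5 does. Its brightest probe set read 13.55, 13.58 and 13.55 in Gb5ko, against 13.87, 13.80 and 13.67 in Gb5wt, without overlap (-0.22 ± 0.10, limma adjusted p = 0.357). The second brightest, given after its values were seen, read 13.65, 13.62 and 13.58 in Gb5ko, against 13.58, 13.66 and 13.62 in Gb5wt, and overlapped fully. The dimmest of the 4, picked after its values were seen, read 6.34, 6.60 and 6.18 in Gb5ko, against 6.68, 7.13 and 7.04 in Gb5wt (-0.57 ± 0.15, limma adjusted p = 0.220). The 4 probe sets all had differences at or below 0, and those of Hspa8 did not give 1 size of difference. The brightest of them has an ID ending in _x_at, a kind that can also bind related sequence.

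Hspa4 and Hspa4l belong to the Hsp110 group, nucleotide exchange factors of Hsp70, with Hsph1. Hspa4l read 9.84, 10.14 and 10.20 in Gb5ko, against 10.20, 10.32 and 10.32 in Gb5wt (-0.22 ± 0.12, limma adjusted p = 0.428), with overlap, and -0.11 without Gb5ko array 1. Hspa4 gave opposite readings by probe set, which were singled out after the values were seen. Its brightest read 11.13, 11.42 and 11.25 in Gb5ko, against 11.39, 11.52 and 11.49 in Gb5wt (-0.20 ± 0.11, limma adjusted p = 0.428). Its second read 10.86, 10.78 and 10.71 in Gb5ko, against 10.21, 10.31 and 10.35 in Gb5wt (0.50 ± 0.10, limma adjusted p = 0.184), all Gb5ko values being higher. The difference between these probe sets was 0.70 ± 0.14 with a limma adjusted p of 0.161 over all 16752 pairs, so the disagreement did not pass the test.

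Hsp90aa1 encodes the inducible cytosolic Hsp90, and its 5 probe sets all lay below 0, from -0.41 to -0.04. The brightest, also given after its values were seen, read 12.55, 12.96 and 12.93 in Gb5ko, against 12.72, 12.96 and 12.88 in Gb5wt, and overlapped. The second, picked after its values were seen, read 12.14, 12.42 and 12.37 in Gb5ko, against 12.77, 12.69 and 12.69 in Gb5wt (-0.41 ± 0.11, limma adjusted p = 0.222). Both Hsph1 probe sets were also below 0, at -0.12 and -0.17.

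Dnajb1, the Hsp40 partner of inducible Hsp70, and Hspb1, the small heat shock protein Hsp25, were the cytosolic genes above 0. The second Dnajb1 probe set, picked after its values were seen, read 7.02, 7.24 and 6.98 in Gb5ko, against 6.50, 6.70 and 6.83 in Gb5wt (0.41 ± 0.12, limma adjusted p = 0.247). Its brightest differed by 0.19 ± 0.10. Hspb1, chosen after its values were seen, read 7.50, 6.71 and 6.52 in Gb5ko, against 6.51, 6.65 and 6.57 in Gb5wt. Its difference of 0.34 ± 0.22 rested on Gb5ko array 1, without which it was 0.04; the second Hspb1 probe set was also highest on that array, at 7.05 against 6.46 and 6.29 on the other Gb5ko arrays.

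The mitochondrial chaperonins Hspd1 (Hsp60) and Hspe1 (Hsp10), which fold imported protein as a pair, had overlapping genotypes. Hspd1 read 10.72, 10.91 and 10.80 in Gb5ko, against 10.63, 11.04 and 10.92 in Gb5wt (-0.05 ± 0.13). The brightest Hspe1 probe set read 12.65, 12.71 and 12.50 in Gb5ko, against 12.64, 12.71 and 12.67 in Gb5wt (-0.06 ± 0.10). Hsf2, a heat shock factor active in brain development, had a dim brightest probe set at 3.35, 3.48 and 3.38 in Gb5ko, against 3.51, 3.36 and 3.65 in Gb5wt. Gb5ko and Gb5wt values of Hsf2 overlapped too.

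**Figure D2:**
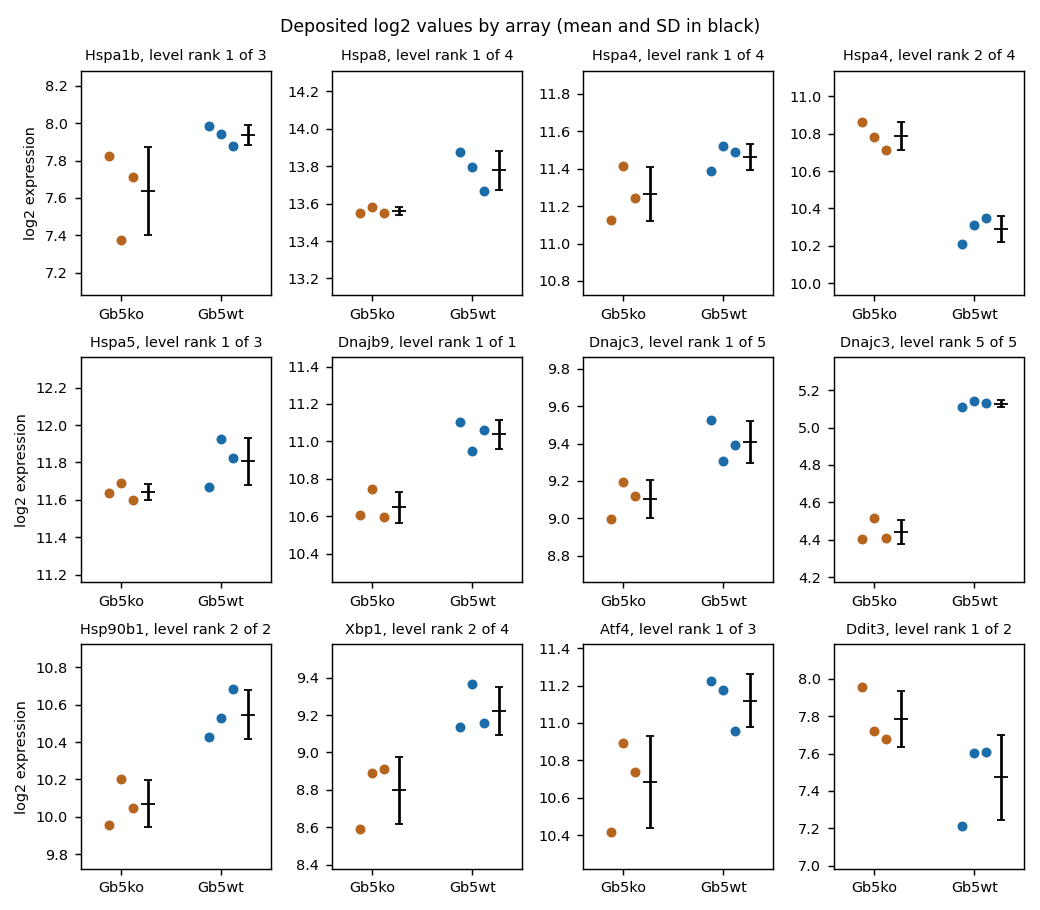
Deposited log2 values (vertical axis) of 12 member probe sets on each array, Gb5ko left and Gb5wt right in every panel, with the mean and SD in black. Level rank counts the probe sets of a gene from the brightest, and each panel spans the same range of log2 units; the Dnajc3 probe set of level rank 5 has its groups far apart for their spread, and the Hspa4 panels show differences of opposite sign.

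A promoter feature was common among the ER chaperones, although it was absent from the windows of Dnajb9, Pdia3 and Pdia4. The ER stress element, which ATF6 is known to bind together with NF-Y, is CCAAT followed by any 9 bases and CCACG on either strand. It was present in windows of 7 of the 10 ER chaperone genes that had one, in 0 windows of the other classes and in 0.119% of all windows (39 of 32851). The elements, in capitals with 8 bases on each side and on the strand of the gene, are shown for the chaperones whose values follow.
Hspa5 chr2:34772017-34772051: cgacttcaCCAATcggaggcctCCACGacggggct
Hsp90b1 chr10:86705525-86705559: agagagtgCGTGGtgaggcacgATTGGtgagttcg
Hsp90b1 chr10:86705630-86705664: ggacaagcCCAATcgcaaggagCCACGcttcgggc
Dnajc3 chr14:118937819-118937853: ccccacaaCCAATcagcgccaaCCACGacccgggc
Canx chr11:50325792-50325826: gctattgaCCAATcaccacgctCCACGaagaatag
Calr chr8:84847067-84847101: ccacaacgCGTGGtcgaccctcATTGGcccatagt
Pdia6 chr12:17266483-17266517: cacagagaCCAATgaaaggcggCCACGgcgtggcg
Creld2 chr15:88819512-88819546: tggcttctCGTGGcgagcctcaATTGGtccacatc
The shorter CCACG alone was in 32.8% of all windows.

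Hspa5 encodes BiP, the ER Hsp70 and the usual marker of ER stress. Its brightest probe set read 11.64, 11.69 and 11.60 in Gb5ko, against 11.67, 11.92 and 11.82 in Gb5wt (-0.16 ± 0.10; 95% interval -0.40 to 0.07; limma adjusted p = 0.492). The second read 11.11, 11.21 and 11.04 in Gb5ko, against 10.98, 11.30 and 11.22 in Gb5wt, and the third 5.43, 5.46 and 5.66 in Gb5ko, against 5.64, 6.14 and 5.40 in Gb5wt. The genotypes overlapped in every Hspa5 probe set, and the 3 differences were -0.16, -0.05 and -0.21.

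Dnajc3 encodes P58IPK, a BiP co-chaperone that also restrains PERK. Its dimmest probe set gave the only member difference of at least 1.5-fold without overlap (background 0.984%): 4.41, 4.52 and 4.41 in Gb5ko, against 5.11, 5.14 and 5.13 in Gb5wt. That was -0.69 ± 0.09, or 1.61-fold lower in Gb5ko (95% interval -0.90 to -0.47; limma adjusted p = 0.0721), and it passed only with array weights (adjusted p = 0.0471). The brightest Dnajc3 probe set read 8.99, 9.20 and 9.12 in Gb5ko, against 9.53, 9.30 and 9.39 in Gb5wt (-0.30 ± 0.11, limma adjusted p = 0.276). Both were lower on every Gb5ko array, while the other 3 differed by 0.02, -0.11 and -0.09 and overlapped.

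Dnajb9, or ERdj4, a BiP co-chaperone induced by XBP1, had the smallest p among the brightest probe sets of the members. It read 10.60, 10.74 and 10.60 in Gb5ko, against 11.10, 10.95 and 11.06 in Gb5wt, without overlap (-0.39 ± 0.10, limma adjusted p = 0.216). Canx, the lectin chaperone calnexin, read 10.97, 11.17 and 11.23 in Gb5ko, against 11.32, 11.48 and 11.38 in Gb5wt (-0.27 ± 0.11, limma adjusted p = 0.315). Its other probe sets were also below 0, at -0.10 and -0.36. Hsp90b1, the ER Hsp90 known as GRP94, overlapped at its brightest probe set (-0.07 ± 0.13), while the second, picked after its values were seen, read 9.96, 10.21 and 10.04 in Gb5ko, against 10.43, 10.53 and 10.69 in Gb5wt (-0.48 ± 0.11, limma adjusted p = 0.202).

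The remaining ER chaperones had differences on both sides of 0. Calreticulin (Calr), the soluble partner of calnexin, had differences of -0.08, -0.04 and 0.15. The protein disulfide isomerases gave -0.04 and -0.33 for Pdia3, 0.19 and 0.37 for Pdia4, and 0.02 and 0.20 for Pdia6. The genotypes did not overlap in the second probe set of Pdia3, lower in Gb5ko (limma adjusted p = 0.275), or in the second of Pdia4, higher in Gb5ko (limma adjusted p = 0.272), both chosen after their values were seen. Creld2 and Manf, secreted proteins induced by ER stress, gave 0.06 and -0.04; Manf lies on chromosome 9. Pdia4 did not share the sign of Dnajb9, Dnajc3 and Canx, but its probe sets were dim, at mean levels of 4.54 and 2.96. The brightest probe sets of Pdia6 (0.02 ± 0.16) and Creld2 (0.06 ± 0.16) were near 0. They changed sign with array weights, to -0.11 and -0.07.

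In ER-associated degradation, which returns misfolded protein to the cytosol, no gene passed the test, and differences ran from -0.20 to 0.23. Edem1, which helps select misfolded glycoproteins, read 7.16, 7.16 and 6.97 in Gb5ko, against 7.34, 7.30 and 7.19 in Gb5wt, without overlap (-0.18 ± 0.11, limma adjusted p = 0.447). Its second probe set differed by 0.07 and overlapped. Herpud1, a membrane component of the degradation complex, read 9.31, 9.12 and 9.22 in Gb5ko, against 8.99, 9.10 and 9.29 in Gb5wt (0.09 ± 0.11). Sel1l, the adaptor of the HRD1 ligase, read 11.64, 11.75 and 11.85 in Gb5ko, against 11.74, 11.79 and 11.76 in Gb5wt (-0.02 ± 0.10). Its other 4 probe sets ran from -0.20 to 0.23. That at 0.23, picked after its values were seen, was higher on every Gb5ko array (limma adjusted p = 0.335).

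Among the sensors, Atf6, the ER-anchored transcription factor, gave opposite readings. Its brightest probe set read 8.32, 8.61 and 8.73 in Gb5ko, against 8.80, 8.86 and 9.03 in Gb5wt (-0.34 ± 0.13, limma adjusted p = 0.294), and -0.23 without Gb5ko array 1. The third, picked after its values were seen, read 6.76, 6.51 and 6.76 in Gb5ko, against 6.34, 6.32 and 6.33 in Gb5wt (0.35 ± 0.11, limma adjusted p = 0.248). The genotypes did not overlap in either, in opposite directions, and the difference between the probe sets, 0.69, had a limma adjusted p of 0.190 over all pairs.

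Xbp1, the transcription factor that IRE1 splices, lay below 0 in all 4 probe sets. The brightest read 8.90, 9.01 and 8.98 in Gb5ko, against 8.93, 9.32 and 9.20 in Gb5wt (-0.19 ± 0.12, limma adjusted p = 0.493). The second, picked after its values were seen, read 8.59, 8.89 and 8.91 in Gb5ko, against 9.13, 9.37 and 9.16 in Gb5wt (-0.42 ± 0.12, limma adjusted p = 0.241). The third differed by -0.37 ± 0.11 and did not overlap either. The probe sets were not resolved into spliced and unspliced transcript. Ern1, which encodes IRE1 alpha, read 6.72, 6.96 and 6.83 in Gb5ko, against 6.81, 6.72 and 6.79 in Gb5wt (0.06 ± 0.10), and Eif2ak3, which encodes PERK, differed by -0.03 ± 0.14.

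In the ATF4 and CHOP arm, Atf4 itself had the largest difference of the class. Its brightest probe set read 10.42, 10.89 and 10.74 in Gb5ko, against 11.22, 11.17 and 10.96 in Gb5wt (-0.44 ± 0.14; 95% interval -0.76 to -0.12; limma adjusted p = 0.258). The second, of a similar level, read 10.84, 10.56 and 10.47 in Gb5ko, against 10.43, 10.42 and 10.58 in Gb5wt (0.15 ± 0.12, limma adjusted p = 0.596), and the third 4.37, 4.49 and 4.48 in Gb5ko, against 4.33, 4.42 and 4.46 in Gb5wt (0.04 ± 0.10). Only the brightest separated the genotypes, and it is of a kind (an ID ending in _x_at) that can also bind related sequence. The same caution holds for the brightest probe sets of Hspa8 and Calr, which have such IDs and were lower on every Gb5ko array. The Canx and Xbp1 probe sets without overlap have IDs ending in _s_at, a kind left out together with _x_at in an alternative given below.

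Ddit3 encodes CHOP, the factor tied to cell death under prolonged ER stress. Its brightest probe set read 7.96, 7.72 and 7.68 in Gb5ko, against 7.21, 7.60 and 7.61 in Gb5wt (0.31 ± 0.14; 95% interval -0.00 to 0.62; limma adjusted p = 0.349), without overlap. The second read 5.22, 4.98 and 5.23 in Gb5ko, against 5.09, 5.11 and 5.25 in Gb5wt (-0.01 ± 0.11). Atf3, an early stress-response repressor, read 4.73, 4.88 and 5.24 in Gb5ko, against 5.17, 5.15 and 5.34 in Gb5wt (-0.27 ± 0.14, limma adjusted p = 0.414). Atf3 was at -0.16 without Gb5ko array 1, and Ddit3 at 0.18 without Gb5wt array 4. Asns (asparagine synthetase) and Chac1 (a glutathione-degrading enzyme) did not overlap at their brightest probe sets, with 0.18 ± 0.10 and 0.15 ± 0.10. That of Asns also has an ID ending in _x_at, and its second probe set overlapped, at 0.04 ± 0.11. Trib3, a pseudokinase that dampens CHOP and AKT, gave 0.22 ± 0.15, and 0.07 without Gb5ko array 3. Without probe sets whose IDs end in _s_at or _x_at the class median was 0.10, and that of the ER chaperones -0.04.

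The C/EBP-ATF composite element TGATGNAA, the letters bound by ATF4 with a C/EBP partner, is the feature of this class. It was in windows of 4 of its 6 genes (Asns, Atf3, Chac1 and Trib3), in Herpud1 of the degradation genes and in 3.97% of all windows. Capitals mark its fixed bases on either strand.
Asns chr6:7693217-7693240: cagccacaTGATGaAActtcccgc
Atf3 chr1:191183428-191183451: tctcgcacTTgCATCAccaagtcc
Chac1 chr2:119351041-119351064: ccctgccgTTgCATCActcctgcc
Herpud1 chr8:94386309-94386332: acggcgggTTgCATCAgcccgcac
Of the 4 with a stretch shown here, Asns, Chac1 and Herpud1 had differences above 0 and Atf3 one below 0.

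**Figure D3:**
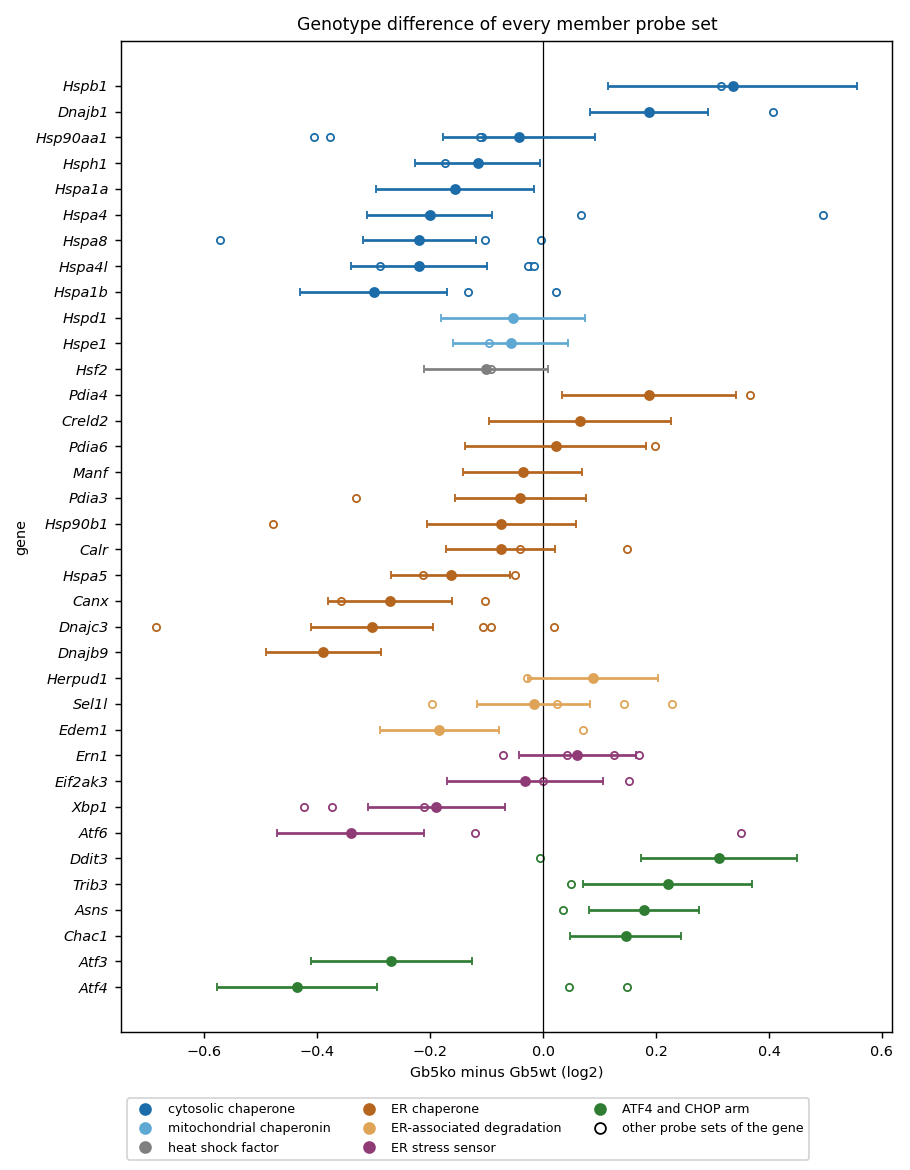
Difference of every member probe set, Gb5ko minus Gb5wt (horizontal axis, log2), by gene, with the brightest probe set filled and its SE as a bar and the other probe sets open. Most filled points of the cytosolic and ER chaperones lie left of 0, and the open points of Hspa4, Atf6 and Dnajc3 lie far from their filled ones.

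Levels also distinguish the classes as a position among all probe sets of the array, although levels of different probe sets cannot be ranked gene by gene. The brightest probe set of the median cytosolic chaperone stood at the 94.4th percentile of all probe sets (log2 level 10.98), that of the median ER chaperone at the 90.6th (10.30), and that of the median gene of the ATF4 and CHOP arm at the 67.6th (7.53). Read the same way, the median of all 18193 genes stood at percentile 66.1 (7.39), close to that of the ATF4 and CHOP arm. The classes overlapped widely: the cytosolic chaperones ran from the 46.8th to the 99.9th percentile, the ER chaperones from the 35.7th (Pdia4) to the 99.0th, and the ATF4 and CHOP arm from the 42.0th (Atf3) to the 97.6th (Asns).

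Probe sets of a gene could be compared for 29 members, and in 17 of these every probe set lay on 1 side of 0. Set against the brightest probe set of the gene, 40 of 57 others had the same sign (70.2%, where 58.4% of the 16752 pairs over all genes did). By class this was 16 of 19 for cytosolic chaperones, 12 of 14 for ER chaperones, 7 of 11 for sensors, 2 of 5 for the ATF4 and CHOP arm, 1 of 6 for the degradation genes and 1 of 1 for each of the chaperonins and Hsf2. At an unadjusted p under 0.05, 7 of the 57 pairs differed in their genotype difference (12.3%, background 14.9%), and limma called 0 of them (background 0.0597%). The shares of the classes were not tested against each other.

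**Figure D4:**
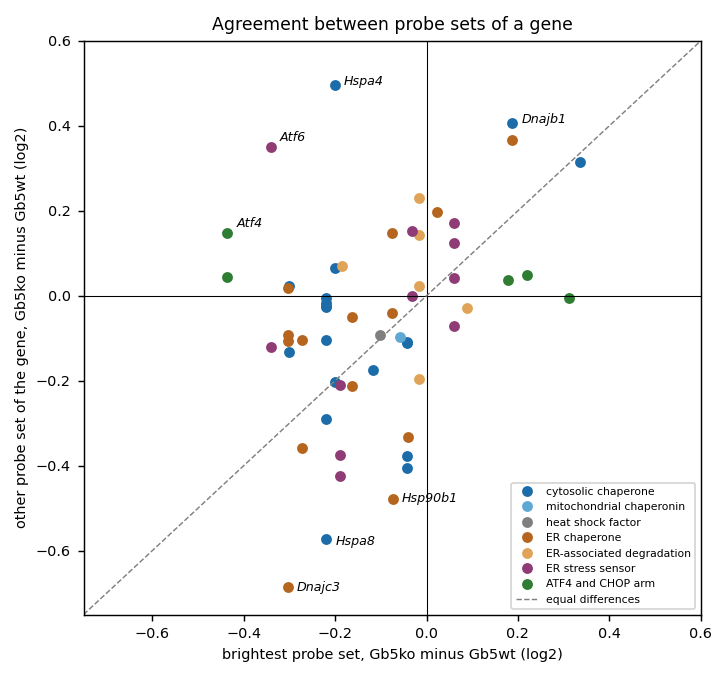
Difference of each further probe set (vertical axis) against that of the brightest probe set of the same gene (horizontal axis), both Gb5ko minus Gb5wt in log2, with a dashed line of equality. Points of Hspa4 and Atf6 lie in the upper left, where the signs oppose, and most chaperone points lie in the lower left.

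Genes of the same pathways outside the list were read for setting. Of 38 other cytosolic and mitochondrial chaperones, 37 were measured, 22 above and 15 below 0, with a median of 0.08. With unadjusted p under 0.05, 4 lay above 0 (10.8%, background for 1 probe set per gene 9.89%) and 2 lay below it (5.41%, background 5.68%). The smallest p values were those of Hspbp1 (0.35), an Hsp70 exchange factor, Cct7 (0.35), a subunit of the chaperonin TRiC, Hspa14 (-0.30), an Hsp70 on ribosomes, and Dnajb5 (-0.28), an Hsp40. Of 37 other ER folding and degradation genes, 36 were measured, 22 above and 14 below 0, with a median of 0.03. By the same rule 2 lay above 0 (5.56%, background 9.89%) and 1 below it (2.78%, background 5.68%). Here the smallest p values were those of Txndc11 (0.44), a thioredoxin-domain protein, Edem2 (0.44), a mannosidase-like protein of glycoprotein degradation, Sil1 (0.42), the exchange factor of BiP, and Mbtps2 (-0.26), the protease that cleaves ATF6.

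Of 44 other ATF4 and integrated stress response genes, 41 were measured, 27 above and 14 below 0, with a median of 0.08. By the same rule 8 lay above 0 (19.5%, background 9.89%) and 5 below it (12.2%, background 5.68%). Slc7a11, the cystine transporter, had its values by array picked after they were seen. It read 5.02, 5.40 and 5.55 in Gb5ko, against 6.18, 5.92 and 6.20 in Gb5wt (-0.78 ± 0.15, limma adjusted p = 0.173), without overlap. Cebpg, the C/EBP partner of ATF4, and Gpt2, an alanine transaminase, were below 0 at -0.43 and -0.37, and Sars, seryl-tRNA synthetase, was above it at 0.44. Slc7a11 and Sars are both known ATF4 targets and lay on opposite sides of 0. The tRNA synthetases were read together after their values were seen. Besides Sars, Aars (0.42), Cars (0.44), Mars1 (0.33) and Wars (0.25) were above 0 at a limma unadjusted p under 0.05 (background 9.89%). These and Sars are among the 8 genes already counted for the list, and their limma adjusted p ran from 0.230 to 0.344. Gars, Yars, Tars and Eprs were above 0 at larger p, and Iars lay below it at -0.07. In all 3 lists limma called 0 genes at an adjusted p under 0.05.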

How the data were processed

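The deposited table holds 1 log2 expression value per probe set and array; RMA and Partek are named, without versions, per the submitters' processing notes, and RMA corrects background, normalizes and summarizes probes. Values ran from 1.91 to 14.4, array medians from 5.81 to 5.85, and were not normalized again. No detection calls were used, so no dim probe set is called absent. Of 45101 probe sets, 64 controls were left out; 34945 had 1 gene in the platform annotation, 932 several and 9160 none listed, and 0 value columns were left unmapped. Of the 1-gene probe sets, 34741 matched the RefSeq gene table, and 0 symbols changed.

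Gb5ko was tested against Gb5wt in limma 3.58.1 (lmFit, eBayes; R 4.3.3, statmod 1.5.0), two-sided, on 3 against 3 arrays, with Benjamini-Hochberg adjustment over 45037 probe sets and a threshold of 0.05; the scripts were tested on simulated data. Residual degrees of freedom were 4 and prior ones 5.05, and the median SE of a difference was 0.123. If the samples of a genotype share animals, p-values measure only the spread between these samples. Pairs of probe sets of a gene were tested in the same way. A gene was read through its brightest 1-gene probe set, by mean over 6 arrays.

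The members, classes and lists were chosen with earlier results of these data known. Values by array are given for the 3 genes of each class (all genes of smaller classes) with the smallest p, for probe sets at least 1.5-fold apart without overlap, and for all probe sets of Hspa1a, Hspa1b, Hspa5, Ddit3 and Atf4; others are said to be picked after their values were seen. Of each pathway list the 4 genes with the smallest p are named. The tRNA synthetases other than Sars are named after their values were seen. Alternatives covered normalization, the variance prior, array weights, dim probe sets, a sex-linked covariate, 1 probe set per gene, thresholds and each array left out. Promoter windows came from RefSeq on GRCm38.p6 for 32 of the 38 members (35 windows). Protein sequences were not used here. Figures were drawn with matplotlib 3.10.9.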

Additional observations from a re-analysis of the deposited data

How the results depend on the processing

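No paired analysis was possible because the genotypes share no replicate numbers in the labels. Of the 93 member probe sets, 1 was called instead of 0 with array weights (Dnajc3, -0.68, limma adjusted p = 0.0471) and 1 at an adjusted p under 0.1; the cause was not tested. Leaving out each array gave 0 calls each time and 16 to 22 probe sets at an unadjusted p under 0.05, against 19. With only the brightest probe set of each gene, which tests fewer of them, it was 8. The background of 14.4% belongs to the main fit. The share over all probe sets was not counted in these settings, so their counts have no background beside them. Over all probe sets the 12 calls became 27 with array weights and 23 with trend and robust eBayes. The ER chaperone median of -0.07 was -0.14 as a mean over all probe sets of a gene, -0.21 with the probe set of largest SD, and -0.146 to -0.0518 with each array left out. The median of the ATF4 and CHOP arm, 0.16, was 0.10 with the probe set of largest SD, 0.10 without _s_at and _x_at probe sets, and 0.11 to 0.19 with each array left out. The cytosolic median stayed between -0.19 and -0.11 with each array left out. No probe-set pair of a member was called under any alternative run. Of 695 single values under the alternatives, 694 kept their side of the threshold, 1 gained a call and 26 uncalled values changed sign. The count of members below 0 was added after seeing the data. Hsf2, Hspa1a, Atf3, Trib3, Pdia4 and the dim Dnajc3 probe set had no value among probe sets above the median level, nor did other dim probe sets. The medians of the cytosolic chaperones, ER chaperones and ATF4 and CHOP arm rested on fewer genes there. With 3 arrays a genotype and dim probe sets near background, small differences are poorly resolved.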
